A study of Bos taurus with 33 samples.

Results

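The oxytocin receptor, the oestrogen receptors, the progesterone receptor and the membrane-associated progesterone receptor components were followed through early pregnancy, the oestrous cycle and interferon treatment in bovine endometrium. Of 6 genes listed (OXTR, ESR1, ESR2, PGR, PGRMC1 and PGRMC2), 5 had probe sets named for them in the array annotation. PGRMC1 has 2 probe sets (Bt.12820.1.S1_at and Bt.22290.1.S1_at), and OXTR (Bt.140.1.S1_at), ESR1 (Bt.28157.1.S1_at), ESR2 (Bt.541.1.S1_at) and PGR (Bt.13036.1.A1_at) have 1 each, so 6 of 24016 tested probe sets and 5 of 9155 named genes are described. PGRMC2 was not analysed here.

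OXTR is the G protein coupled receptor through which oxytocin makes the ruminant uterus release prostaglandin F2α, the hormone that ends the life of the corpus luteum. In the textbook account of the cow, progesterone holds OXTR and the oestrogen receptors down in the endometrial epithelium for most of the cycle, the receptors return at its end, and interferon tau from the conceptus keeps them from returning in pregnancy. ESR1 and ESR2 are the nuclear receptors for oestradiol, PGR is the nuclear receptor for progesterone, and PGRMC1 is a haem-binding membrane protein linked to rapid progesterone actions and to steroid synthesis.

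The data came from 33 Bavarian Simmental heifers, 1 array per animal, all synchronised with the prostaglandin analogue cloprostenol. In the pregnancy experiment, pregnant heifers, inseminated on day 1 with sperm of the same bull, and cyclic heifers given the sperm-free supernatant instead, were sampled on day 12 (5 pregnant and 5 cyclic), day 15 (3 and 3) or day 18 (4 and 4), from the intercaruncular endometrium of the horn on the side of the corpus luteum. In the biopsy experiment, heifers received on day 14 a lipid extrudate with human interferon alpha (IFNA, 3 animals), the extrudate alone (placebo, 3 animals) or phosphate-buffered saline (PBS, 3 animals), and 6 biopsies per animal were taken on day 16. The sampled part of the horn was distal on day 12, medial on day 15 and caudal on day 18 and in the biopsies, so the day and the part of the horn cannot be told apart.

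All values are log2 RMA expression values of whole tissue, in which fewer cells of a type and less RNA per cell cannot be told apart. The arrays fell into 4 sets with their own value distributions (biopsies, day 12, day 15 and day 18; array medians of 6.61 to 6.69, 6.84 to 6.87, 6.48 to 6.51 and 7.23 to 7.27), so levels across sets are given after subtracting each array's median. The 3′ minus 5′ difference of the GAPDH control probe sets, a measure of RNA integrity, ran from 1.03 to 3.87 in the biopsies and from -0.16 to 0.56 in the pregnancy experiment. Group averages of the 10 epithelial markers ran from the 21.2 to 28.4 percentiles of an array (KRT8, the dimmest) to the 99.2 to 99.5 percentiles (EPCAM, the brightest), and those of 9 stromal markers from 41.3 to 52.2 (PDGFRB) to about 99.9 (DCN). Of 7 measured genes listed as trophoblast markers, the placental lactogen CSH2 lay between 9.22 and 15.9. The pregnancy-associated glycoprotein PAG2 lay between 1.77 and 5.76. The protease inhibitor PTI lay between 74.6 and 89.9, so it was bright in every group, cyclic animals and biopsies included. The interferon-induced genes ISG15 and MX2 rose by 4.91 ± 0.227 and 5.41 ± 0.249 (SE) with IFNA against placebo and by 4.90 ± 0.327 and 5.57 ± 0.270 in pregnant against cyclic animals on day 18.

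**Figure D1:**
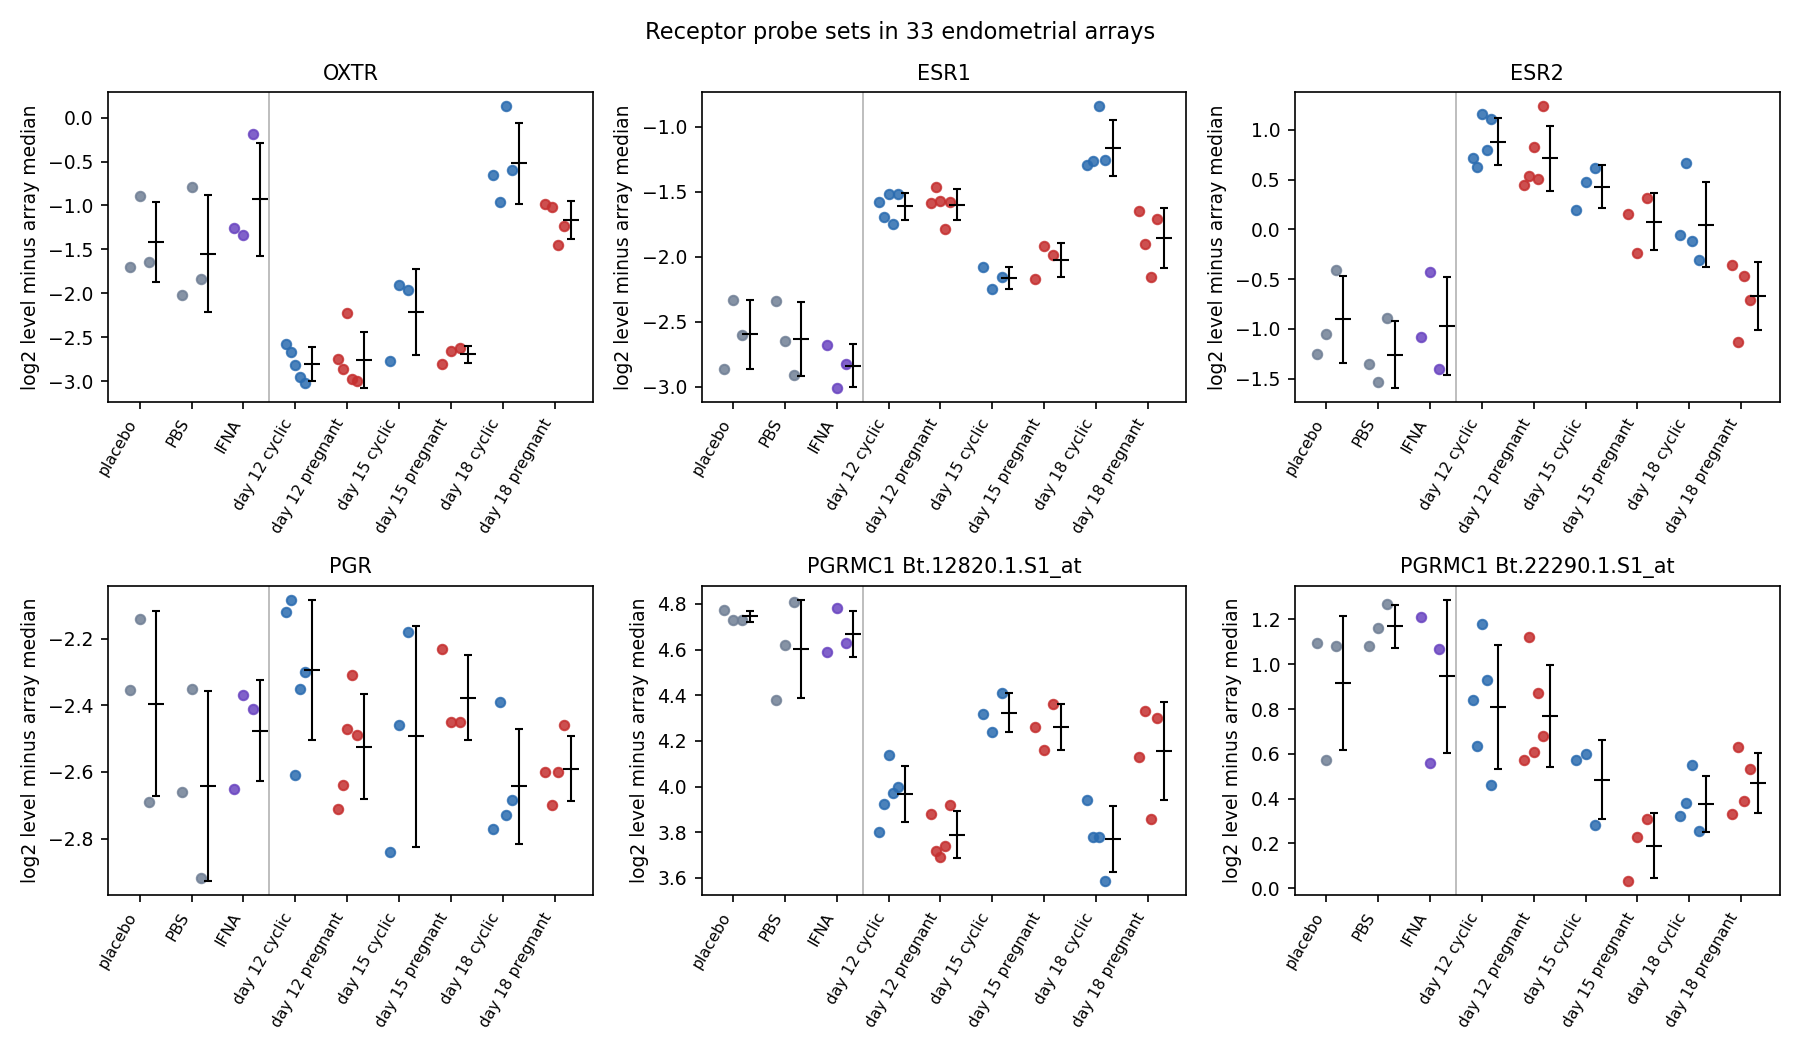
Log2 level minus the array's median for each receptor probe set (vertical axes, separate scales) in the 33 arrays by group; points are arrays, dashes and bars are means and SD, and the grey line divides the biopsy from the pregnancy experiment. OXTR lies at -0.96 to 0.13 in cyclic animals on day 18, above every array of days 12 and 15, while all PGR arrays lie below -2.

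OXTR was lowest on days 12 and 15 and highest in cyclic animals on day 18. Relative to the array median, its group means ran in the order day 18 cyclic (-0.52 ± 0.461, SD, n = 4), IFNA (-0.93 ± 0.642, n = 3), day 18 pregnant (-1.17 ± 0.216, n = 4), placebo (-1.41 ± 0.453, n = 3), PBS (-1.55 ± 0.664, n = 3), day 15 cyclic (-2.21 ± 0.486, n = 3), day 15 pregnant (-2.69 ± 0.0964, n = 3), day 12 pregnant (-2.76 ± 0.316, n = 5) and day 12 cyclic (-2.80 ± 0.188, n = 5). Every neighbouring pair in that order overlapped in its arrays. The probe set moved from the 12.8 percentile of its array to the 52.1 percentile.

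ESR1 ran in another order. Day 18 cyclic was highest at -1.16 ± 0.215 (SD), with none of its arrays reaching down to the next group, day 12 pregnant (-1.60 ± 0.119). Day 12 cyclic (-1.61 ± 0.105), day 18 pregnant (-1.86 ± 0.230), day 15 pregnant (-2.03 ± 0.129) and day 15 cyclic (-2.16 ± 0.0850) followed, each overlapping the next. The biopsies were lowest, at -2.60 ± 0.268 for placebo, -2.63 ± 0.285 for PBS and -2.84 ± 0.165 for IFNA, and the placebo arrays did not overlap those of day 15 cyclic. The pairs without overlap cross array sets, and the share of all probe sets without overlap in them was not counted. The biopsies also differed from the pregnancy experiment in the GAPDH measure given above. Its part in their levels was not tested, here or for ESR2 below.

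ESR2 was highest on day 12 and lowest in the biopsies. Its mean was 0.88 ± 0.239 (SD) in day 12 cyclic and 0.71 ± 0.329 in day 12 pregnant animals, 0.43 ± 0.219 and 0.08 ± 0.287 in day 15 cyclic and pregnant animals, and 0.05 ± 0.429 and -0.67 ± 0.341 in day 18 cyclic and pregnant animals. The biopsy groups lay at -0.91 ± 0.441 (placebo), -0.97 ± 0.494 (IFNA) and -1.26 ± 0.334 (PBS). The gap between day 18 cyclic and day 18 pregnant was the only one between neighbours in the order whose arrays did not overlap.

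PGR stayed in a narrow range near the dim end of the array. Group means ran from -2.29 ± 0.210 (SD) in day 12 cyclic to -2.64 ± 0.173 in day 18 cyclic animals, all neighbours overlapped, and single arrays lay between the 12.7 and 24.2 percentiles. How far this probe set can follow a change in PGR at such signals was not tested.

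Both probe sets of PGRMC1 lay above the array median and ordered the groups differently. Bt.12820.1.S1_at was bright in every array (95.6 to 98.2 percentile), with group means from 4.75 ± 0.0260 (SD) in placebo down to 3.79 ± 0.103 in day 12 pregnant and 3.77 ± 0.145 in day 18 cyclic animals. Bt.22290.1.S1_at ran from 1.17 ± 0.0954 in PBS to 0.19 ± 0.144 in day 15 pregnant animals. Every neighbouring pair overlapped in both orders. Across the 24 pregnancy arrays the Pearson r of the 2 probe sets was -0.28. This is a description, since the arrays fall into sets by day with their own value distributions. The 2 probe sets are kept apart below.

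Pregnant and cyclic animals were compared on each day first, since these arrays share a set. On day 18, OXTR, ESR1 and ESR2 fell in pregnant animals by 0.66 to 0.73 log2, about 1.58- to 1.65-fold, and the brighter PGRMC1 probe set rose by 0.37. PGR and the other PGRMC1 probe set did not pass. Thus 4 of the 6 probe sets passed an adjusted p of 0.05 (3 lower, 1 higher), beside 19.0% of all probe sets (8.84% higher and 10.2% lower). In 3 of the 6 the arrays of the groups did not overlap, beside 21.0% of all probe sets.

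The OXTR values on day 18 were 6.61, 6.29, 7.38 and 6.66 in the cyclic animals and 6.26, 6.25, 5.78 and 6.00 in the pregnant animals. The lowest cyclic array stood just above the highest pregnant one, and cyclic animal 3 was highest by 0.72. The difference was -0.66 ± 0.208 (SE; 95% interval -1.09 to -0.23; adjusted p = 0.0285, n = 4 and 4). The call ended without cyclic animal 3 (-0.45, adjusted p = 0.125), pregnant animal 3 (-0.57, 0.0948) or pregnant animal 4 (-0.64, 0.0634), and with the day 18 arrays fitted alone (0.0706).

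ESR1 read 5.97, 5.99, 6.41 and 6.00 in the cyclic and 5.59, 5.37, 5.07 and 5.52 in the pregnant animals of day 18. All cyclic arrays were higher than all pregnant ones, by at least 0.38. The difference was -0.71 ± 0.109 (95% interval -0.93 to -0.48; adjusted p = 8.79e-05), and the call held in each of the 8 fits that left out 1 animal.

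ESR2 read 7.20, 7.92, 7.13 and 6.95 in the cyclic and 6.88, 6.14, 6.76 and 6.52 in the pregnant animals. The groups did not overlap, with 0.07 between the nearest arrays, and cyclic animal 2 stood above the rest. The difference was -0.73 ± 0.207 (95% interval -1.16 to -0.29; adjusted p = 0.0167). It no longer passed without cyclic animal 2 (-0.52, adjusted p = 0.0805) or pregnant animal 2 (-0.58, 0.0747), or with the day 18 arrays alone (0.0606).

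PGR read 4.49, 4.86, 4.52 and 4.57 in the cyclic and 4.64, 4.57, 4.63 and 4.77 in the pregnant animals of day 18, with overlapping groups. The difference was 0.04 ± 0.126 (95% interval -0.22 to 0.30; adjusted p = 0.869).

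For PGRMC1, Bt.12820.1.S1_at read 11.20, 11.03, 11.03 and 10.84 in the cyclic and 11.37, 11.60, 11.09 and 11.53 in the pregnant animals. Pregnant animal 3 lay within the cyclic range and the other pregnant animals above it. The difference was 0.37 ± 0.0989 (95% interval 0.17 to 0.58; adjusted p = 0.0104), held whichever animal was left out, and did not pass with the day 18 arrays alone (0.0729). Bt.22290.1.S1_at ran from 7.51 to 7.80 in cyclic and from 7.57 to 7.90 in pregnant animals, a difference of 0.08 ± 0.135 (95% interval -0.20 to 0.36; adjusted p = 0.748), so the 2 probe sets of the gene did not give the same call.

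**Figure D2:**
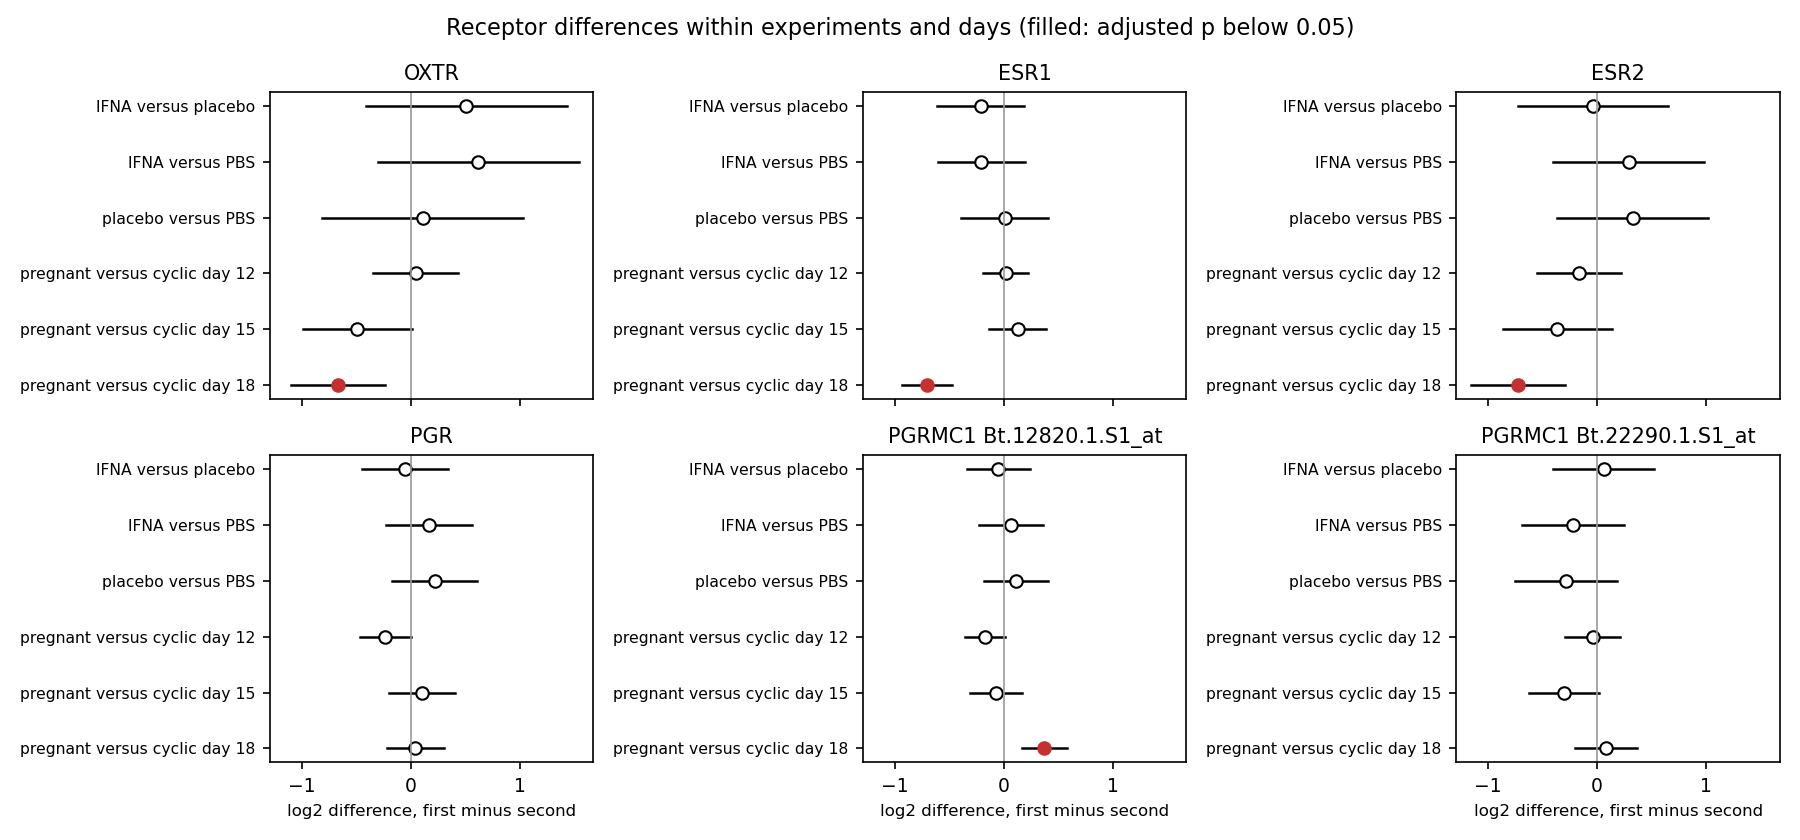
Log2 difference (horizontal axes, first minus second group) of each receptor probe set in the 6 comparisons within an array set; circles are limma estimates, bars 95% intervals, and filled circles have an adjusted p below 0.05. The filled circles are all on day 18, at -0.66 for OXTR, -0.71 for ESR1, -0.73 for ESR2 and 0.37 for the brighter PGRMC1 probe set.

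On day 15 no receptor probe set passed, beside 5.07% of all probe sets, and 0 of the 6 had an unadjusted p below 0.05 in limma, beside 18.7%. OXTR read 3.74, 4.61 and 4.53 in the cyclic and 3.68, 3.85 and 3.88 in the pregnant animals. Cyclic animals 2 and 3 were above all pregnant animals, and cyclic animal 1 lay among them. The difference was -0.49 ± 0.240 (95% interval -0.99 to 0.01; adjusted p = 0.279). ESR2 (-0.36 ± 0.239) and the second PGRMC1 probe set (-0.30 ± 0.156) were lower in the mean, and ESR1 (0.13 ± 0.126), PGR (0.11 ± 0.145) and the first PGRMC1 probe set (-0.07 ± 0.114) differed less, with adjusted p from 0.310 to 0.827. ESR1 read 4.43, 4.26 and 4.33 in cyclic and 4.31, 4.58 and 4.51 in pregnant animals, which overlapped.

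On day 12 again none of the 6 passed and none had an unadjusted p below 0.05, beside 0.00416% of all probe sets called by limma and 6.65% with an unadjusted p below 0.05. OXTR ran from 3.85 to 4.27 in the cyclic animals (median 4.03) and from 3.87 to 4.63 in the pregnant animals (median 4.00), a difference of 0.05 ± 0.186 (95% interval -0.34 to 0.43). ESR1 ran from 5.12 to 5.35 and from 5.06 to 5.40, a difference of 0.02 ± 0.0975 (-0.19 to 0.22). The groups lay on top of each other for both. ESR2 differed by -0.17 ± 0.185, PGR by -0.23 ± 0.112 (-0.46 to 0.00317), and PGRMC1 by -0.18 ± 0.0885 and -0.04 ± 0.121 (adjusted p from 0.765 to 0.996 over the 6).

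Whether the pregnancy effect itself changed between days was tested as an interaction. From day 15 to day 18 the effect on ESR1 changed by -0.83 ± 0.167 (95% interval -1.18 to -0.49; adjusted p = 0.0371), from 0.13 on day 15 to -0.71 on day 18. It was 1 of 6 receptor probe sets past the threshold, beside 0.208% of all probe sets. The call ended in 7 of 14 fits that left out 1 animal, with adjusted p up to 0.124: without any 1 of the 3 cyclic animals of day 15 (0.0729, 0.0960 and 0.0820), without pregnant animal 2 or 3 of day 15 (0.108 and 0.124), and without cyclic animal 3 or pregnant animal 2 of day 18 (0.0594 each). The difference in those 14 fits stayed between -0.91 and -0.73.

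For OXTR and ESR2 the same term (day 18 minus day 15) was -0.17 ± 0.318 (adjusted p = 0.920) and -0.36 ± 0.316 (0.793), so the fall on day 18 was not shown to differ from the difference on day 15. PGRMC1 changed by 0.45 ± 0.151 (0.297) and 0.39 ± 0.207 (0.598), and PGR by -0.06 ± 0.192 (0.957). From day 12 to day 15, none of the 6 passed, beside 1.99% of all probe sets, and 0 had an unadjusted p below 0.05 in limma, beside 14.4%. The widest differences were -0.54 ± 0.304 for OXTR (adjusted p = 0.452) and 0.34 ± 0.183 for PGR (0.429). The 2 interactions share the day 15 animals.

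With intrauterine IFNA, no receptor probe set passed against placebo (beside 0.866% of all probe sets) or against PBS (0.862%), and in limma 0 of the 6 had an unadjusted p below 0.05 in either comparison, beside 8.47% and 9.34%. Both share the IFNA animals. OXTR read 5.40, 5.30 and 6.47 with IFNA, 4.92, 5.72 and 5.00 with placebo, and 4.61, 5.85 and 4.85 with PBS. IFNA animal 3 was highest, while placebo animal 2 and PBS animal 2 exceeded the other IFNA animals. The difference was 0.51 ± 0.406 against placebo (95% interval -0.41 to 1.43; adjusted p = 0.827) and 0.62 ± 0.406 against PBS (-0.30 to 1.54; 0.793); without IFNA animal 3 that against placebo was 0.14.

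ESR1 read 3.98, 3.63 and 3.83 with IFNA, 3.76, 4.28 and 4.04 with placebo and 4.29, 3.99 and 3.78 with PBS. All 3 groups overlapped, and the differences were -0.21 ± 0.176 against placebo (95% interval -0.61 to 0.19) and -0.21 ± 0.176 against PBS (-0.61 to 0.19). ESR2 differed from placebo by -0.04 ± 0.304 (-0.73 to 0.65), PGR by -0.05 ± 0.174 (-0.45 to 0.34), and PGRMC1 by -0.05 ± 0.129 (-0.34 to 0.24) and 0.06 ± 0.205 (-0.41 to 0.53). Between placebo and PBS, limma called 0 of 6 and 0 of all 24016 probe sets (0%). Those with an unadjusted p below 0.05 numbered 0 and 651 (2.71%), and the receptor differences ran from -0.28 (PGRMC1, Bt.22290.1.S1_at) to 0.33 (ESR2).

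The IFNA effect (against placebo) was then set against the pregnancy effect in 1 fit over all arrays. Against day 18, OXTR differed by 1.17 ± 0.410 (95% interval 0.33 to 2.01; adjusted p = 0.177), ESR1 by 0.49 ± 0.191 (0.241), ESR2 by 0.69 ± 0.356 (0.412) and PGRMC1 by -0.42 ± 0.156 (0.210) and -0.02 ± 0.233, and PGR by -0.10 ± 0.207. None of the 6 passed in limma, beside 1.09% of all probe sets, and 3 had an unadjusted p below 0.05, beside 13.2%. With array weights OXTR (1.52, adjusted p = 0.0366) and ESR1 (0.63, 0.0452) passed. The share of all probe sets called in this comparison ran from 0.00416% to 5.28% over all settings tried. Against day 15, OXTR differed by 1.00 ± 0.438 (adjusted p = 0.325). There none of the 6 passed in limma, beside 0.371%, and 1 had an unadjusted p below 0.05, beside 12.9%. The 2 experiments also differed in day, sampling and the GAPDH measure given above, and the part of these in the differences was not tested.

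Between days the arrays belong to different sets, and 49.5% to 60.3% of all probe sets passed, so counts of receptors called are read against those shares. The following differences are on values minus the array median. In cyclic animals, OXTR was 1.69 ± 0.226 higher on day 18 than on day 15 (adjusted p = 2.16e-06), and in pregnant animals 1.52 ± 0.226 higher (8.10e-06). On day 15 its arrays lay at the 12.8 to 25.5 percentiles, and how far such dim signals follow the transcript was not tested, so no fold is given. OXTR was higher on day 18 under all 3 scalings tried: as deposited by 2.44 and 2.27, and after quantile normalisation over all arrays by 1.72 and 1.64.

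ESR1 was 1.00 ± 0.117 higher on day 18 than on day 15 in cyclic animals (adjusted p = 3.59e-07). In pregnant animals the difference was 0.17 ± 0.117 (0.231); as deposited it was 0.92 (3.18e-07), beside a median of 0.66 over all probe sets on that scale, and without day 18 pregnant animal 3 it passed at 0.27 (0.0467). The rise in cyclic animals was 1.75 as deposited and 0.93 after quantile normalisation. ESR2 was 0.74 ± 0.226 lower on day 18 in pregnant animals (adjusted p = 0.00873) and 0.38 ± 0.226 lower in cyclic animals (0.167). Without day 18 cyclic animal 2 the latter passed (-0.59, 0.0262). After quantile normalisation these were -0.80 and -0.40. As deposited they were 0.00500 and 0.37, beside a median of 0.66 over all probe sets on that scale, so the sign differed as deposited only. The pregnant call ended without day 15 pregnant animal 3 (-0.62, adjusted p = 0.0528).

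In all, 3 of 6 passed from day 15 to day 18 in cyclic animals, beside 49.5% of all probe sets, and 2 of 6 in pregnant animals, beside 52.2%. The third call in cyclic animals was PGRMC1 Bt.12820.1.S1_at (-0.55 ± 0.104; adjusted p = 0.000151), which was 0.20 as deposited and -0.30 after quantile normalisation. PGR differed by -0.15 ± 0.139 and -0.21 ± 0.139 without passing, and by 0.60 and 0.54 as deposited, past the threshold there. Whether day, part of the horn or array set accounts for any of these cannot be told apart.

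From day 12 to day 15, 4 of 6 passed in each state, beside 58.6% of all probe sets in cyclic and 60.3% in pregnant animals. ESR1 was lower on day 15 by -0.55 ± 0.112 in cyclic (adjusted p = 0.000271) and -0.43 ± 0.112 in pregnant animals (0.00241), and was lower under all 3 scalings. OXTR was 0.59 ± 0.216 higher in cyclic animals (0.0228), a call that ended without day 15 cyclic animal 2 or 3 (0.44 and 0.47; adjusted p = 0.136 and 0.117), after quantile normalisation (0.36, 0.201) and as deposited (0.24, 0.349). In pregnant animals OXTR differed by 0.07 ± 0.216, and by -0.29 as deposited and after quantile normalisation.

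ESR2 was lower on day 15 by -0.64 ± 0.216 in pregnant animals (adjusted p = 0.0148; without day 15 pregnant animal 2 -0.48, 0.103) and by -0.45 ± 0.216 in cyclic animals (0.0772), where it was -0.80 and passed as deposited (0.00284). PGR differed by -0.20 ± 0.133 in cyclic animals without passing (0.200), but passed as deposited (-0.55, 0.000995), after quantile normalisation (-0.46, 0.00490) and without day 15 cyclic animal 3 (-0.36, 0.0358). In pregnant animals PGR differed by 0.15 ± 0.133 (0.348), and by -0.22 as deposited and -0.12 after quantile normalisation. The 2 PGRMC1 probe sets moved in opposite directions: Bt.12820.1.S1_at was higher by 0.36 ± 0.0999 in cyclic and 0.47 ± 0.0999 in pregnant animals (adjusted p = 0.00433 and 0.000373), and Bt.22290.1.S1_at lower by -0.33 ± 0.139 and -0.58 ± 0.139 (0.0498 and 0.00116). As deposited the first differed by 0.00467 and 0.11 without passing. The cyclic call of the second ended in 6 of 8 fits that left out 1 animal (day 12 cyclic animals 1, 3 and 4 and day 15 cyclic animals 1, 2 and 3; -0.38 to -0.22, adjusted p up to 0.239).

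**Figure D3:**
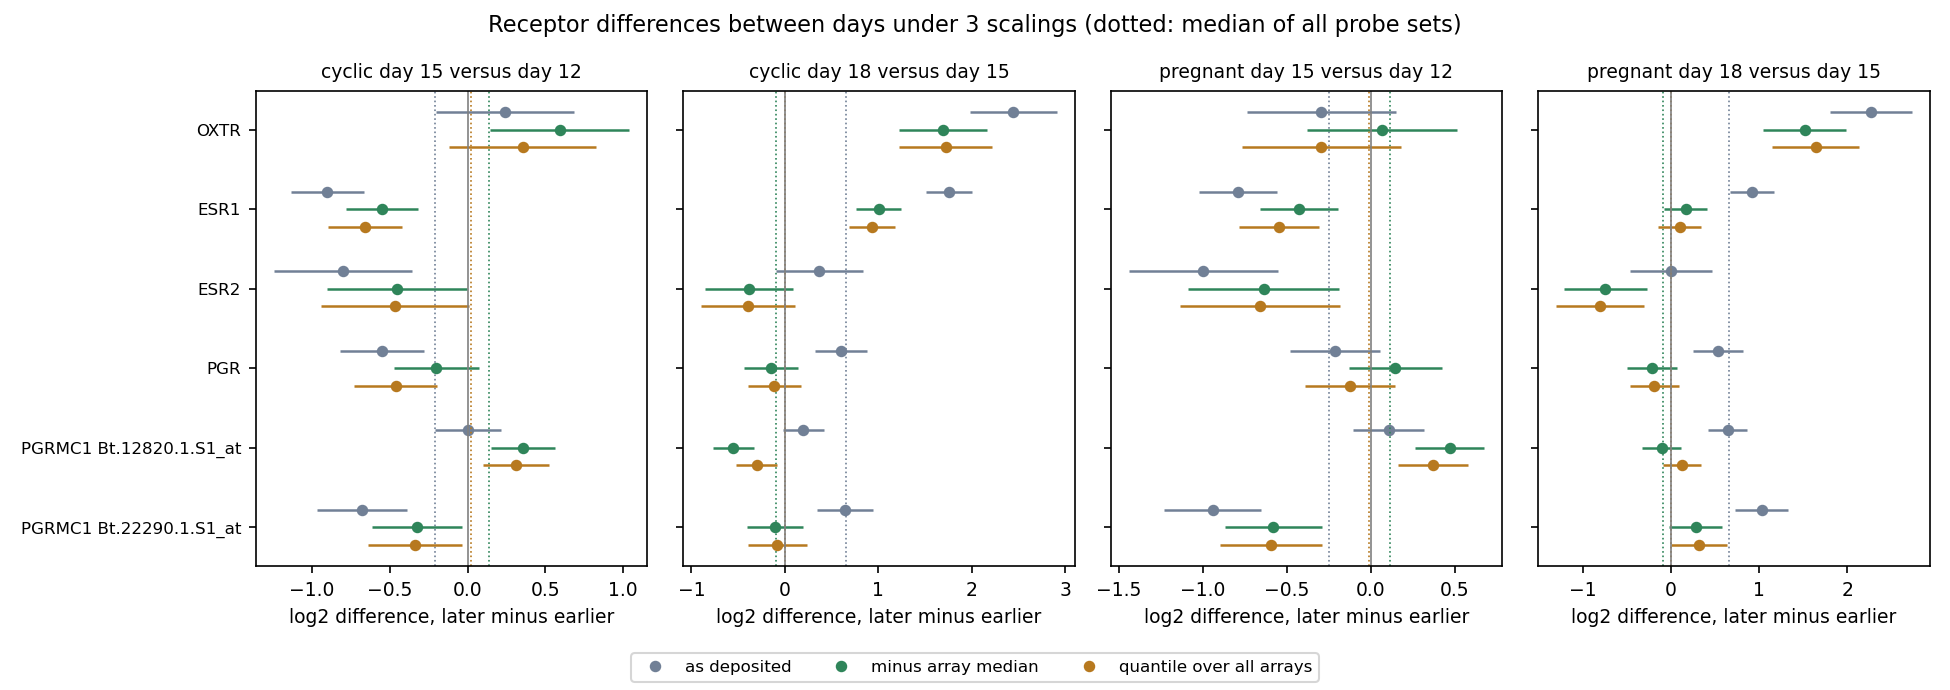
Log2 difference between days (horizontal axes, later minus earlier) of each receptor probe set under 3 scalings; points are limma estimates, bars 95% intervals, and dotted lines the median of all probe sets under the same scaling. OXTR lies right of 0 under all 3 from day 15 to day 18 in both states, whereas PGR and the brighter PGRMC1 probe set cross 0 with the scaling.

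The genes around the receptors were taken from 6 lists. On day 18, 22 of their 100 measured genes passed, close to the 23.0% of all named genes (1 probe set per gene; 12.6% higher and 10.4% lower, with a median difference of -0.02). Of 34 listed progesterone responsive endometrial genes 25 were measured, 6 rose, 1 fell and 18 did not pass, with a median of 0.19. SERPINA14, the uterine serpin secreted by the glands under progesterone, rose by 3.32 ± 0.395 (10.02 against 6.69; adjusted p = 2.75e-06). DKK1, a secreted Wnt inhibitor, rose by 2.10 ± 0.363 (0.000284) and AREG, an EGF receptor ligand, by 1.37 ± 0.330 (0.00527; without pregnant animal 1 0.89, 0.00979). HSD11B1, which turns cortisone into cortisol, rose by 0.88 ± 0.291 (0.0383), a call that ended without any 1 of the 4 cyclic animals or of pregnant animals 2 to 4 (0.67 to 0.92) and with array weights.

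Of 24 listed oestrogen responsive genes 16 were measured. Beside 12.6% of named genes higher and 10.4% lower, 2 rose, none fell and 14 did not pass (median 0.14). The 2 were C3, the central complement protein (1.09 ± 0.232; adjusted p = 0.00189), and AGR2, a protein disulphide isomerase of secretory cells (1.33 ± 0.315; 0.00473). Of 13 measured coregulators and receptor chaperones (25 listed), 1 rose, the prohibitin PHB1 (0.29 ± 0.0839; 0.0191), and the call ended without cyclic animal 3 or pregnant animal 2 (0.21 to 0.24). The list of other steroid receptors, which also holds orphan receptors and relatives of PGRMC1, had 8 of 19 genes measured. In it NR2F2, an orphan receptor, rose by 0.36 ± 0.108 (0.0211) and NENF, a relative of PGRMC1, fell by 0.25 ± 0.0774 (0.0281). These ended without cyclic animal 2 or pregnant animals 1 or 2 for NR2F2 (0.31 to 0.35), and without cyclic animals 1, 2 or 3 or pregnant animals 2, 3 or 4 for NENF (-0.25 to -0.20).

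Oxytocin signalling had 22 of 30 listed genes measured, with 3 higher, 3 lower and 16 not passing on day 18 (median -0.05). AKR1B1, which can act as a prostaglandin F synthase in bovine endometrium, fell by 0.66 ± 0.135 (11.32 against 11.98; adjusted p = 0.00138), and PLCB1, the phospholipase downstream of Gq, fell by 0.57 ± 0.157 (0.0139). ARRB1, a β-arrestin that uncouples receptors, rose by 0.75 ± 0.150 (0.00113), and the kinase PRKCD rose by 0.58 ± 0.186 (0.0331), a call that ended without cyclic animals 1, 2 or 3 or pregnant animals 3 or 4 (0.46 to 0.61). PTGS2, the cyclooxygenase of this pathway, did not pass (-0.10 ± 0.348, adjusted p = 0.887), nor did oxytocin itself (OXT, -0.05 ± 0.0855, 0.773); both were picked after their values were seen.

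In steroid metabolism 16 of 23 listed genes were measured, 1 rose, 3 fell and 12 did not pass (median -0.16). HSD17B10 rose by 0.33 ± 0.0703 (adjusted p = 0.00196), and HSD17B1 and HSD17B11, which interconvert active and less active sex steroids, fell by 0.45 ± 0.125 (0.0151) and 0.41 ± 0.109 (0.0103). STAR, the mitochondrial cholesterol carrier, fell by 0.52 ± 0.182 (0.0493), a call that ended without any 1 of cyclic animals 2, 3 and 4 and pregnant animals 2, 3 and 4 (-0.56 to -0.32), after quantile normalisation and with array weights. With the day 18 arrays fitted alone, AREG (adjusted p = 0.0578), PHB1, NENF and STAR did not pass. AREG and STAR were dim, at mean percentiles of 22.9 and 18.2 over all arrays. How far such signals follow the transcript was not tested.

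Markers of other cells were counted on day 18 too, where 12.6% of named genes were higher and 10.4% lower. Of 8 measured endothelial markers (9 listed) 5 fell and none rose, with a median of -0.71 and a mean level per array of 0.82 to 1.46 above the array median in cyclic and 0.40 to 0.66 in pregnant animals. The steepest were PLVAP (-0.97 ± 0.218), TIE1 (-0.92 ± 0.150), PECAM1 (-0.83 ± 0.153) and the VEGF receptor KDR (-0.78 ± 0.171). Epithelial markers had 3 of 10 higher and 1 lower, with mean levels of 2.19 to 2.43 in cyclic and 2.17 to 2.44 in pregnant animals. Stromal markers had 1 of 9 higher and 2 lower, smooth muscle 0 of 5 past the threshold, and leukocytes 1 of 10 higher. Of 2 measured ciliated cell markers (6 listed) 1 fell, TPPP3 (-0.78 ± 0.201), with a median of -0.72 and mean levels of 1.06 to 2.08 in cyclic and -0.05 to 1.57 in pregnant animals. Trophoblast markers had 0 of 7 past it (0 at an unadjusted p below 0.05 in limma, beside 31.2% of all probe sets; mean levels -1.66 to -1.55 in cyclic and -1.59 to -1.50 in pregnant animals). The part of these cell markers in the falls of OXTR, ESR1 and ESR2 was not tested.

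**Figure D4:**
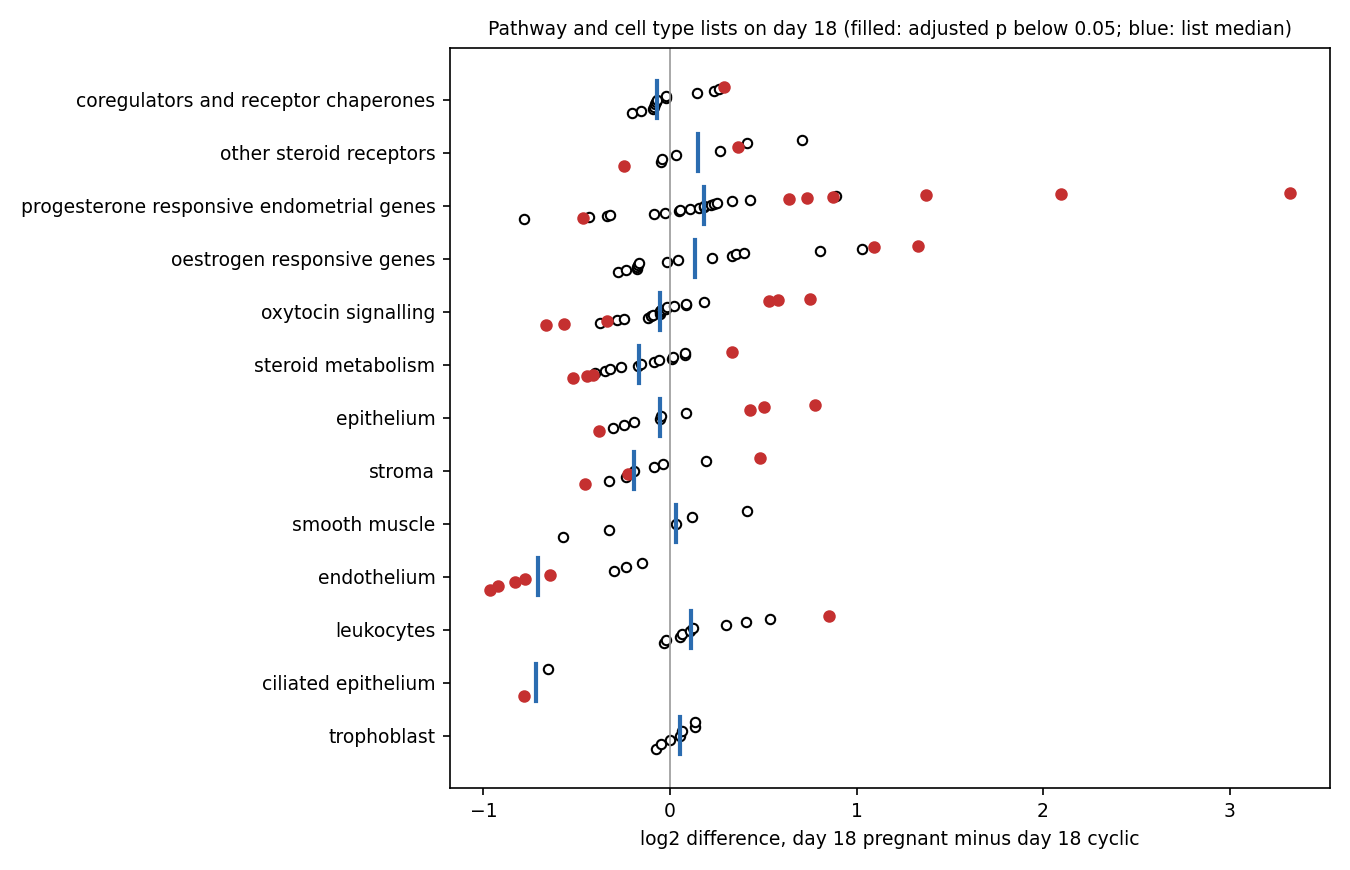
Log2 difference between pregnant and cyclic animals on day 18 (horizontal axis) for the genes of 6 pathway lists and 7 cell type lists; each circle is a gene, filled circles have an adjusted p below 0.05, and blue bars are list medians. SERPINA14 lies farthest right at 3.32, and the endothelial list has its median at -0.71.

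On day 15, where 6.38% of named genes passed, 5 of 100 measured genes of the 6 lists did. DKK1 rose by 1.82 ± 0.419 (adjusted p = 0.0129) and PHB1 by 0.38 ± 0.0969 (0.0224), while NCOA1, a steroid receptor coactivator, fell by 0.31 ± 0.0827 (0.0286), IHH, a progesterone-induced epithelial signal, by 0.76 ± 0.187 (0.0194), and HSD17B11 by 0.45 ± 0.126 (0.0397). Each call ended without some single animals: cyclic animal 2 for DKK1 (1.35, adjusted p = 0.0965), cyclic animals 1 or 2 or pregnant animals 1 or 3 for PHB1 (0.36 to 0.38), cyclic animal 3 or pregnant animals 2 or 3 for NCOA1 (-0.31 to -0.23), cyclic animals 2 or 3 or pregnant animals 1 or 2 for IHH (-0.73 to -0.59), and any cyclic animal or pregnant animals 1 or 3 for HSD17B11 (-0.49 to -0.36). With the day 15 arrays fitted alone none of the 5 passed, and NCOA1 did not pass after quantile normalisation. No gene of the oxytocin or oestrogen lists passed (0 of 22 and 0 of 16 in limma, with 4 and 2 at an unadjusted p below 0.05). Endothelial markers had 2 of 8 lower (median -0.38).

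On day 12 the 1 probe set past the threshold (0.0109% of named genes) was that of LPL, the lipoprotein lipase, a member of the progesterone responsive list (-1.62 ± 0.241; adjusted p = 0.0241). It no longer passed without cyclic animal 3 or pregnant animals 1, 2, 4 or 5 (-1.68 to -1.56), or with the day 12 arrays alone. With IFNA, 0 of the 100 measured pathway genes passed in limma against placebo or PBS, beside 1.14% and 1.21% of named genes; 12 and 11 of them had an unadjusted p below 0.05. SERPINA14, the widest of the pathway genes on day 18, differed from placebo by 0.55 ± 0.897 (adjusted p = 0.936).

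The interactions called 2 of the 100 pathway genes between days 12 and 15 (2.53% of named genes), and 0 between days 15 and 18 (0.251%), where 13 had an unadjusted p below 0.05 in limma, beside 9.27% of all probe sets. The IFNA effect against the pregnancy effect called 1 on day 15 (0.502% of named genes) and 1 on day 18 (1.45%). DKK1 (2.15 ± 0.530) and the cytochrome P450 reductase POR (0.38 ± 0.0991) had a more positive pregnancy effect on day 15 than on day 12. The effect on POR passed on neither of these days. The interaction calls ended in 10 and 14 of 16 fits with 1 animal left out (1.69 to 2.25 and 0.35 to 0.42). The lysosomal protease CTSL differed by 2.13 ± 0.482 between the IFNA effect and the pregnancy effect of day 15, a call that ended in 10 of 12 such fits (1.76 to 2.29) and after quantile normalisation. AGR2 differed by -2.66 ± 0.505 between the IFNA effect and the pregnancy effect of day 18 (adjusted p = 0.00683). It passed in each such fit, but not with the replicate number as a block (0.180). The pregnancy effect of day 18 on AGR2 was 1.33, and the IFNA effect on it did not pass.

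Oxytocin signalling is the list followed gene by gene between days, on values minus the array median. From day 12 to day 15, PTGS2, the inducible cyclooxygenase, rose by 1.45 ± 0.361 in cyclic (adjusted p = 0.00171) and 1.92 ± 0.361 in pregnant animals (0.000104), and CD38, an ADP-ribosyl cyclase, by 0.94 ± 0.0949 and 1.12 ± 0.0949. AKR1B1 fell by 0.83 ± 0.140 in cyclic and 1.12 ± 0.140 in pregnant animals. The arrestin ARRB2 fell by 0.84 ± 0.119 in cyclic animals and MYLK, the myosin light chain kinase, by 0.93 ± 0.276 in pregnant animals. In this list 4 of 22 rose and 7 fell in cyclic animals, beside 35.9% and 21.6% of named genes, and 5 rose and 10 fell in pregnant animals, beside 37.2% and 23.0%.

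From day 15 to day 18, while OXTR was higher in both states, PTGES, the prostaglandin E synthase, rose by 1.08 ± 0.227 in cyclic and 1.01 ± 0.227 in pregnant animals (adjusted p = 0.000443 and 0.000794). GRK5, a kinase that desensitises G protein coupled receptors, rose by 0.65 ± 0.147 and 0.71 ± 0.147. Cyclic animals had PRKCA higher by 0.65 ± 0.132 and PRKCB lower by -0.65 ± 0.139, which was 0.10 as deposited; pregnant animals had ARRB1 higher by 0.71 ± 0.163 and PRKCD by 0.62 ± 0.202, the latter not past the threshold without pregnant animal 3 of day 18 (0.50, adjusted p = 0.0516). In all, 3 of 22 rose and 3 fell in cyclic animals, beside 15.7% and 29.9% of named genes, and 6 rose and 4 fell in pregnant animals, beside 19.8% and 29.7%.

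The other 5 lists are given between days by counts. From day 15 to day 18 in cyclic animals, beside 15.7% of named genes higher and 29.9% lower, coregulators had 1 of 13 higher and 6 lower, other steroid receptors 1 of 8 and 1, progesterone responsive genes 1 of 25 and 7, oestrogen responsive genes 2 of 16 and 3, and steroid metabolism 3 of 16 and 5. In pregnant animals, beside 19.8% and 29.7%, these were 2 and 5, 1 and 1, 2 and 6, 3 and 2, and 3 and 5 in the same order. From day 12 to day 15 they were 3 and 3, 3 and 1, 8 and 6, 5 and 3, and 7 and 2 in cyclic animals (beside 35.9% and 21.6%), and 2 and 5, 3 and 1, 8 and 6, 6 and 3, and 6 and 2 in pregnant animals (beside 37.2% and 23.0%).

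Cell markers were counted between days on the same scale, beside the shares of all named genes. From day 12 to day 15 these were 35.9% higher and 21.6% lower in cyclic animals, and 37.2% and 23.0% in pregnant animals. From day 15 to day 18 they were 15.7% and 29.9% in cyclic animals, and 19.8% and 29.7% in pregnant animals. From day 12 to day 15, smooth muscle markers had 2 of 5 lower in cyclic (median -0.61) and 4 of 5 lower in pregnant animals (-0.76), leukocyte markers 5 of 10 higher in each (1 lower in cyclic), and trophoblast markers 6 of 7 higher in each, the cyclic animals included. From day 15 to day 18, stromal markers had 4 of 9 lower in cyclic (median -0.28) and 7 of 9 lower in pregnant animals (-0.43), and trophoblast markers 5 of 7 lower in each. Epithelial markers had 4 of 10 higher and 2 lower from day 12 to day 15 in cyclic and 4 and 1 in pregnant animals, and 2 and 2, and 1 and 4, from day 15 to day 18. Their part in the differences of the receptors between days was not tested.

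Genes whose levels followed a receptor most closely were ranked by Pearson r over the 24 pregnancy arrays, among 9154 other genes. Values minus the array median were used. Day, horn part and array set differ together among these arrays, so the coefficient is a description. For OXTR they were ZZEF1 (r = 0.93), SMC4, a condensin subunit (0.92), and the growth factor receptor FGFR3 (0.92), and 17 genes exceeded 0.9. After subtracting group means these coefficients were 0.44, 0.51 and 0.02. For ESR1 they were the endothelial receptor KDR (0.88), ASPH (0.88) and CDCA7L (0.85), with 0.51, 0.45 and 0.39 after group means. KDR is among the endothelial markers that fell on day 18.

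ESR2 was followed most closely by CYBRD1, a ferric reductase, by MTURN and by RABEP1 (r = 0.94 each), which kept 0.69, 0.75 and 0.75 after group means were subtracted. The nearest to PGR were PLLP (0.69), MTA3, a subunit of a chromatin-remodelling complex (0.65), and TMEM171 (0.65), with 0.64, 0.60 and 0.70. The nearest to PGRMC1 Bt.12820.1.S1_at were UQCRC2, a subunit of mitochondrial complex III (0.89), IMP3 (0.86) and ATXN7L1 (0.86), with 0.76, 0.66 and 0.48.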

How the data were processed

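Total RNA from the endometrium of 33 heifers was hybridised to Affymetrix bovine genome arrays. The authors deposited log2 values; the submitters' processing notes name RMA and affy (versions and build are not given in the sources used here), with 2 decimals and between 1.89 and 14.2. Separate normalisation of 4 sets of arrays was inferred, since sorted values differed more between sets than within them. The number of arrays limits the precision (median SE of a log2 difference 0.147 in biopsies, and 0.0906, 0.117 and 0.101 on days 12, 15 and 18).

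Of 24128 probe sets, 112 controls were left out. The array annotation gave 13292 probe sets 1 gene symbol and 86 several. Of the former, 13263 matched a RefSeq gene (ARS-UCD2.0) by gene identifier and took its symbol, whether or not this changed it. A linear model with 1 mean per group (lmFit and eBayes of limma 3.58.1, R 4.3.3) was used on 24 pregnancy, 9 biopsy or all 33 arrays, two-sided, with Benjamini-Hochberg adjustment over 24016 probe sets and a threshold of 0.05; 14 comparisons were made. Comparisons between days used values minus the array median. The fit was tested on simulated data. Each list gene is represented by its probe set with the highest mean. Named genes are the receptors, the 4 list members with the largest change past the threshold per pathway list and comparison, the 3 genes with the highest r for each receptor, and ISG15 and MX2 (with MX1, not printed); between days only the oxytocin list is named gene by gene. The 4 endothelial markers follow the same rule (TPPP3 too); CSH2, PAG2 and PTI were chosen after their values were seen. The members and lists were chosen with earlier results of these data known. Replicate numbers were not used to pair the animals in the main fits. Alternatives were each array left out, a replicate block, quantile normalisation, a filter on dim probe sets, array weights, fewer groups in the fit, the GAPDH difference as a covariate, and values without centring.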

Additional observations from a re-analysis of the deposited data

Results flagged for a closer look

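ESR1 had 1 array apart from the others of its group: cyclic animal 3 of day 18 read 6.41, against 5.97 to 6.00 in the other 3 cyclic animals. Its gap to the nearest array was 0.932 of the group's range, above Dixon's 95% critical value for 4 samples. This was 1 of 24 groups of receptor arrays looked at, and chance flags about 1 in 20. The same animal had the highest OXTR value of its group (7.38).

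The pregnancy effect on ESR1 differed between day 15 (0.13) and day 18 (-0.71) by an interaction term of -0.83 (adjusted p = 0.0371 in limma, n = 3 and 3, and 4 and 4). The term was negative in all 14 fits with 1 animal left out and did not pass in 7 of them.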

How the results depend on the processing

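Of 1140 recomputed receptor differences, 1083 kept their direction and side of the threshold or changed sign while passing in neither fit (54 of them), 40 no longer passed, 11 newly passed and 6 reversed. The 6 reversed as deposited, from day 15 to day 18: PGR (0.60 in cyclic and 0.54 in pregnant animals), PGRMC1 Bt.12820.1.S1_at (0.20 and 0.64), PGRMC1 Bt.22290.1.S1_at in cyclic (0.64) and ESR2 in pregnant animals (0.00500); so did PRKCB in cyclic animals (0.10). On that scale the median of all probe sets was 0.66 in both states, against -0.10 and -0.09 after centring, and 79.5% and 78.2% of probe sets were called higher and 4.31% and 4.73% lower, against 16.7% and 18.5% higher and 32.8% and 33.7% lower after centring. From day 12 to day 15 the median was -0.21 in cyclic and -0.25 in pregnant animals as deposited, against 0.14 and 0.11.

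The number of receptor probe sets past the threshold, with 1 animal left out, was 3 to 4 on day 18 (4 with all animals), 0 to 1 for the difference in pregnancy effect between days 15 and 18 (1), 2 to 4 and 3 to 4 in cyclic animals from day 12 to 15 (4) and 15 to 18 (3), and 3 to 4 and 1 to 3 in pregnant animals (4 and 2). Leaving out the dimmest 33.3% of probe sets, which keeps 3 of the 6 receptor probe sets, gave 2 on day 18, 0 for that difference, 1 and 1 in cyclic animals and 1 in pregnant animals from day 15 to 18. The day 18 arrays alone gave 1 (ESR1). Array weights gave 2 in cyclic animals from day 12 to 15, and 2 for the IFNA effect against the pregnancy effect of day 18. As deposited, pregnant animals had 5 from day 15 to 18, beside 83.0% of all probe sets on that scale. From day 12 to 15 the share called over all settings ran from 42.4% to 58.7% in cyclic and from 53.3% to 63.6% in pregnant animals. From day 15 to 18 it ran from 38.6% to 83.8% and from 36.9% to 83.0%. For the IFNA effect against the pregnancy effect of day 18 it ran from 0.00416% to 5.28%. Over all settings the share of all probe sets called ran from 7.80% to 26.8% on day 18, from 1.68% to 9.53% on day 15, from 0.0333% to 0.337% for the difference in effect between days 15 and 18, and from 0.221% to 1.41% for IFNA against placebo.

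With the replicate number as a block, 0 receptor probe sets passed on day 18 (ESR1 adjusted p = 0.0587, PGRMC1 0.123, ESR2 0.139, OXTR 0.153) and 0 for the difference in effect between days 15 and 18 (ESR1 0.273). Of the named pathway list genes on day 18, AREG, PHB1, NR2F2, NENF, PRKCD, HSD17B10, HSD17B11 and STAR did not pass with the block either. SERPINA14, DKK1, C3, AGR2, PLCB1, AKR1B1, ARRB1, HSD17B1 and HSD11B1 did. None of those named on days 12 and 15, in the interactions or for the IFNA effect against the pregnancy effect passed with it. Nor did ARRB1 in pregnant animals from day 15 to 18. The sample titles give the replicate numbers only as biological replicates, and whether they pair animals cannot be told. Correlations of 33 same-numbered pairs, in which animals recur, ran from -0.34 to 0.37, and 6 exceeded 0.1. In 19 of 66 cases, each an array in 1 comparison so that arrays recur, the best correlation was with the array of the same number. How many such cases unpaired animals would give was not worked out. In pregnant against cyclic animals these were 5 of 10 on day 12, 4 of 6 on day 15 and 1 of 8 on day 18. Low signal limits what can be read of the dim receptors: OXTR, ESR1 and PGR had group means below the array median. The same limit holds for dim list genes such as KDR, CTSL, CD38 and ARRB2 (mean percentiles 17.7, 21.1, 28.8 and 30.1). The cause of the other changes was not tested.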
